A study of Mus musculus with 27 samples.

Results

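*Nr5a1*, *Nr5a2*, *Nr0b1*, *Nr0b2*, *Nr2f1* and *Nr2f2* encode 6 orphan nuclear receptors, transcription factors for which a bound hormone is not needed or not known. They were matched by symbol to Ensembl gene identifiers and made up 6 of the 48795 genes listed for every library. The study differentiated mouse embryonic stem cells toward cells of the embryonic gonad and sequenced bulk RNA from 27 libraries in 9 groups of 3. The choice of the 6 genes used their names and not a measured difference in any one comparison, but earlier results of these data were known when it was made.

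*Nr5a1*, also called SF1, is required for the formation of gonads and adrenal glands and drives the genes of steroid synthesis. *Nr5a2*, also called LRH1, binds the same extended half-site as a monomer and is known from pluripotent cells, liver and ovary. *Nr0b1* (DAX1) and *Nr0b2* (SHP) lack the usual DNA binding domain, attach to other nuclear receptors including those of the Nr5a pair, and mostly repress them. *Nr2f1* and *Nr2f2* encode the chicken ovalbumin upstream promoter transcription factors COUP-TFI and COUP-TFII, which bind repeats of the half-site AGGTCA as dimers, often repress transcription, and are widely used in embryonic mesenchyme and nervous system. Both COUP-TF genes are known to respond to retinoic acid in several cell types.

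All cells came from 1 XY clone, clone 7, of embryonic stem cells from C57BL/6 x CBA F1 mice. They carried the reporter Tesco-CFP, a *Sox9* enhancer element joined to cyan fluorescent protein, and R26-rtTA, a doxycycline-dependent activator at the Rosa26 locus, so both alleles were present in every group. Embryonic stem cells (ESC) were grown with inhibitors and leukaemia inhibitory factor. EpiSC cells had spent 60 h in Activin A at 20 ng/ml and basic fibroblast growth factor (bFGF) at 12 ng/ml. M cells, the mesoderm stage, then received bFGF at 20 ng/ml, bone morphogenetic protein 4 (BMP4) at 10 ng/ml and the PI3K inhibitor LY294002 at 10 µM over 36 h. The intermediate mesoderm conditions IM1 to IM5 lasted 3.5 days, and all contained bFGF at 5 ng/ml and BMP4 at 20 ng/ml. IM1 had no further factor, IM2 to IM5 had retinoic acid (RA) at 100 nM, IM2 and IM5 had Activin A at 10 ng/ml, and IM4 and IM5 had the GSK3 inhibitor CHIR99021 at 0.3 µM. The iSLC group was made from IM3 cells that were exposed for 24 h to lentiviruses with doxycycline-inducible *Nr5a1* and *Dmrt1*, moved to a hormone-containing Sertoli medium with Activin A at 50 ng/ml and doxycycline at 2 µg/ml, and sorted for CFP 4 days later. Vectors, medium, time and sort changed together between IM3 and iSLC and cannot be told apart.

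Expected counts, which are RSEM's estimates of the fragments of each gene, summed to 35923040 to 84876603 per library. *Dmrt1*, the other vector gene, lay at 192 to 228 TPM in iSLC and at 0.34 to 0.65 TPM in IM3, where TPM is the transcript share of a gene, a level per length with the same total in every library. Among 10 Sertoli markers, 1 was called higher in iSLC than in IM3, the vector gene *Dmrt1*, and 0 lower, where 19.2% of all genes were called. *Sox9* lay at 40.0 ± 5.51 TPM in IM3 and 24.8 ± 1.60 TPM in iSLC. *Gata4* was lower in every iSLC library (167, 153 and 163 TPM) than in IM3 (341, 342 and 336 TPM) but was not called. *Amh* was at 0.32, 0.56 and 0.44 TPM in IM3 and 0.56 ± 0.0781 TPM in iSLC. *Cldn11* (0.483 ± 0.0569 TPM in IM3, 7.05 ± 0.24 in iSLC), *Dhh* (0.70 ± 0.0346 and 1.86 ± 0.454) and *Sox8* (3.90 ± 0.422 and 6.93 ± 0.624) passed the p threshold but missed the count or fold minimum given below (SD, n = 3). Summed TPM of 6 red blood cell genes was 11.7 to 91 in ESC, M, IM3 and IM4 libraries and 1.57 to 4.54 in those of EpiSC, IM1, IM2, IM5 and iSLC, and the log2 trend of counts with GC content was -0.417 to -0.081 in M, IM3 and IM4 and -0.0996 to 0.44 in the other groups. IM3 against M, IM4 against IM3 and IM5 against IM2 stay on 1 side of that division, the other pairwise comparisons cross it, and no group has libraries on both sides to give a value within one. The part of this difference in the results was not tested. All 17 calls of the 6 genes described here were kept under an offset for each library's GC trend. That offset covers only the GC trend and cannot separate the factors from a division that follows whole groups. The labels do not say whether the 3 libraries of a group were separate cultures, so p-values measure the spread between libraries of 1 clone.

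The genes lie on 6 chromosomes of GRCm38. *Nr5a1* (ENSMUSG00000026751) is at chr2:38692656-38714542 on the minus strand and *Nr5a2* (ENSMUSG00000026398) at chr1:136842571-136960448 on the minus strand. *Nr0b1* (ENSMUSG00000025056) is at chrX:86191764-86195947 on the plus strand and *Nr0b2* (ENSMUSG00000037583) at chr4:133553376-133556536 on the plus strand, and each has a single transcript of 2 exons in the files. *Nr2f1* (ENSMUSG00000069171) is at chr13:78188973-78199757 and *Nr2f2* (ENSMUSG00000030551) at chr7:70351944-70366735, both on the minus strand. No stretch of 75 bases, the read length, in the annotated transcripts of *Nr5a1*, *Nr5a2*, *Nr0b1* or *Nr0b2* occurred in another gene, and *Nr2f1* and *Nr2f2* shared 0 such stretches with each other. Each COUP-TF gene overlaps a noncoding gene on the opposite strand. *A830082K12Rik* shares 123 exonic bases with *Nr2f1* (2.42% of its exonic bases), and *B130024G19Rik* shares 643 with *Nr2f2* (7.46%). The strand setting of the counting is not given in the sources used here, so reads from these stretches cannot be assigned with certainty.

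Promoter windows of 250 bases before to 50 after the start of transcription were read from RefSeq (GRCm38.p6) for 5 of the 6 genes, in 7 windows. The Nr5a element was searched as CAAGGTCA and CAAGGCCA, the COUP-TF element by its name DR1 (a direct repeat of AGGTCA with 1 base between), and the half-site AGGTCA, which was added later and lies within DR1 and CAAGGTCA, all on both strands. One of the windows of these genes held an Nr5a element, that of *Nr0b2*, and 3.92% of 32851 windows in the table held either form. The half-site was in windows of *Nr0b1* and *Nr5a2* and in 16.3% of all windows, and DR1 was in 0.0396% of all windows and in none of the 7. The 250 bases before the start are shown for *Nr0b1* (chrX:86191525-86191774, plus strand) and *Nr0b2* (chr4:133553126-133553375, plus strand), since both genes are classed with the Nr5a pathway. For *Nr5a2*, 36 bases are shown (chr1:136960492-136960527, minus strand). Capitals mark the half-site in *Nr0b1*, starting 126 bases before the start, the element CAAGGCCA in *Nr0b2*, starting 201 bases before it, and the half-site in *Nr5a2*, starting 64 bases before it. A match describes these letters only and is not a measured binding site.
*Nr0b1*: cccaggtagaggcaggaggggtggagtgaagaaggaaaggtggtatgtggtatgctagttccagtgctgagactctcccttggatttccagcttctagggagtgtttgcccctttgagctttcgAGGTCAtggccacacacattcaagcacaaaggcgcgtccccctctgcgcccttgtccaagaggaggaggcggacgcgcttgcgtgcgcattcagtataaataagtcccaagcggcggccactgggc
*Nr0b2*: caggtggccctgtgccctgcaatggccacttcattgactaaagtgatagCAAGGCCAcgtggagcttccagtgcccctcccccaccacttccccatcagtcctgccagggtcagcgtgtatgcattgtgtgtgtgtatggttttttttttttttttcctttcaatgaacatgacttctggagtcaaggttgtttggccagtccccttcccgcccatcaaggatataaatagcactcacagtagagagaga
*Nr5a2*: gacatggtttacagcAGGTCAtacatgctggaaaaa

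**Figure D1:**
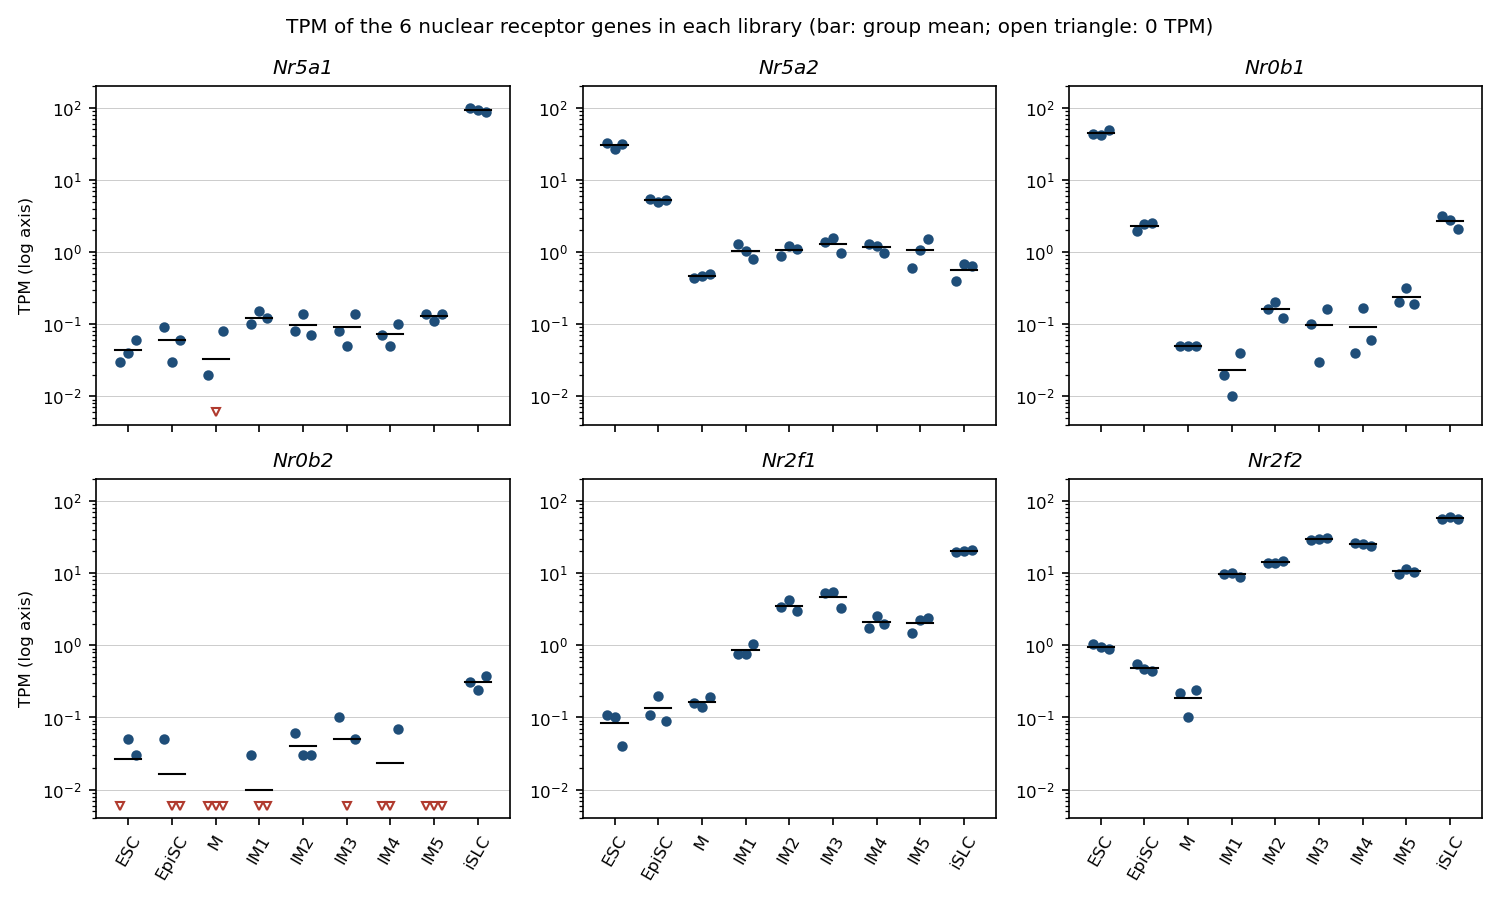
TPM on a log axis for each of the 6 genes in the 27 libraries, with 9 groups on the horizontal axis, points for libraries, bars for group means and open triangles for libraries at 0 TPM. *Nr5a1* stands at 87.2 to 100.3 TPM in iSLC and at most 0.15 TPM elsewhere, *Nr5a2* and *Nr0b1* are highest in ESC, and *Nr2f1* and *Nr2f2* are highest in iSLC.

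*Nr5a2* and *Nr0b1* were genes of the pluripotent groups, and both fell at each of the first steps of differentiation. *Nr5a2* was at 32.7, 26.6 and 31.2 TPM in the ESC libraries, 5.46, 4.97 and 5.34 TPM in EpiSC and 0.43, 0.47 and 0.49 TPM in M. *Nr0b1* was at 43.3, 42.4 and 48.5 TPM in ESC, 1.98, 2.43 and 2.54 TPM in EpiSC and 0.05 TPM in each M library. For both genes every ESC library was above every EpiSC library and every EpiSC library above every M library, so the drop was seen in all 3 libraries at each step.

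From ESC to EpiSC, *Nr0b1* fell by 4.23 on the log2 scale (standard error 0.148, adjusted p = 1.77e-18, an 18.7-fold difference) and *Nr5a2* fell by 2.52 (0.119, 9.66e-16, 5.75-fold). These and the following adjusted p-values are from edgeR's quasi-likelihood test with Benjamini-Hochberg adjustment over 20839 genes, and a difference was called at an adjusted p no higher than 0.01 and a fold no lower than 2 when the gene also averaged 100 or more normalized reads. Of the 5 genes tested 2 were called, against 8.07% of all genes tested. *Nr2f2* was lower in EpiSC by the test (log2 difference -1.09, adjusted p = 8.43e-08), from 1.06, 0.94 and 0.89 TPM to 0.56, 0.47 and 0.44 TPM, but lay under the count minimum in both groups. *Nr5a1* and *Nr2f1* gave adjusted p = 0.349 and 0.708.

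From EpiSC to M both fell further. *Nr5a2* fell by 3.41 on the log2 scale (standard error 0.155, adjusted p = 1.4e-16, 10.6-fold). *Nr0b1* had 147, 164 and 195 expected counts in EpiSC and 3 in each M library, which is at the floor of 3 counts taken here as the limit of detection. The ratio of depth-scaled counts, EpiSC over M, was 47.0, with an exact 95% interval of 24.6 to 103.0 that covers counting error only, and the fitted log2 difference was -5.47 (adjusted p = 1.15e-14). These 2 of 5 genes were called, against 14.5% of all genes. *Nr2f2* reached its lowest level of the series in M, at 0.22, 0.10 and 0.24 TPM (log2 difference -1.002, adjusted p = 2.13e-05, under the count minimum). The sum of 6 pluripotency marker genes was 8630 to 9138 TPM in ESC, 4133 to 4226 in EpiSC and 444 to 460 in M, and in bulk RNA fewer cells of a type cannot be told apart from less RNA per cell.

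The pluripotency factors listed with these receptors moved mostly the same way. Of 14 listed genes, 12 were called lower and 1 higher in EpiSC than in ESC (median log2 difference -1.73, against -0.00258 over all genes tested). The lowest were *Klf4* (43.6 ± 2.81 to 1.41 ± 0.0503 TPM), *Tbx3* (28.3 ± 2.14 to 1.26 ± 0.304 TPM) and *Tfcp2l1* (39.5 ± 2.81 to 2.90 ± 0.211 TPM), all transcription factors of the naive state, while *Dppa3* rose from 69.6 ± 3.17 to 135.7 ± 4.07 TPM (SD, n = 3). From EpiSC to M, 8 of the 14 were called lower and 2 higher. *Esrrb*, itself an orphan nuclear receptor that binds Nr5a-like half-sites, fell from 27.2 ± 1.22 to 2.46 ± 0.349 TPM at that step, and *Tbx3* rose again to 49.9 ± 4.30 TPM.

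Neither gene regained its ESC level later. *Nr5a2* stayed between 0.60 and 1.55 TPM in the 15 IM libraries and rose only modestly from M to IM3, from 0.43, 0.47 and 0.49 to 1.37, 1.55 and 0.96 TPM (log2 difference 1.23, standard error 0.181, adjusted p = 1.21e-06). The IM3 and M libraries did not overlap, although the call was lost with limma on log2(TPM + 1), where the difference was 0.64, and when only M and IM3 were fitted. In IM1 the difference from M was 0.97 (adjusted p = 2.1e-05), just under the fold minimum. *Nr0b1* was at 0.01 to 0.32 TPM, or 1 to 20 expected counts, in the IM libraries, and 6 of these 15 were at or under the floor. At those counts no difference of *Nr0b1* between IM conditions or from M was called, and the adjusted p-values nearest the threshold were 0.0115 for IM5 against IM4 and 0.0342 for IM3 against IM1.

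The COUP-TF genes showed the opposite course, from nearly no message in the first 3 groups to their highest levels in iSLC. *Nr2f2* was at 9.83, 9.98 and 8.96 TPM in IM1, against 0.22, 0.10 and 0.24 TPM in M, a rise of 5.48 on the log2 scale (standard error 0.111, adjusted p = 6.64e-24). *Nr2f1* was at 0.75, 0.77 and 1.06 TPM in IM1 against 0.16, 0.14 and 0.19 TPM in M (log2 difference 1.73, adjusted p = 4.57e-07), which was under the count minimum. So in IM1, with bFGF and BMP4 as its only added factors, *Nr2f2* was called against M, and *Nr2f1* missed only the count minimum. M and IM1 also differ in the doses of both factors, in LY294002, in time and in red blood cell gene sums. These cannot be told apart. In this comparison 1 of 5 genes was called, against 15.7% of all genes. Without the count minimum, *Nr2f1* and *Nr5a1* were called as well.

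**Figure D2:**
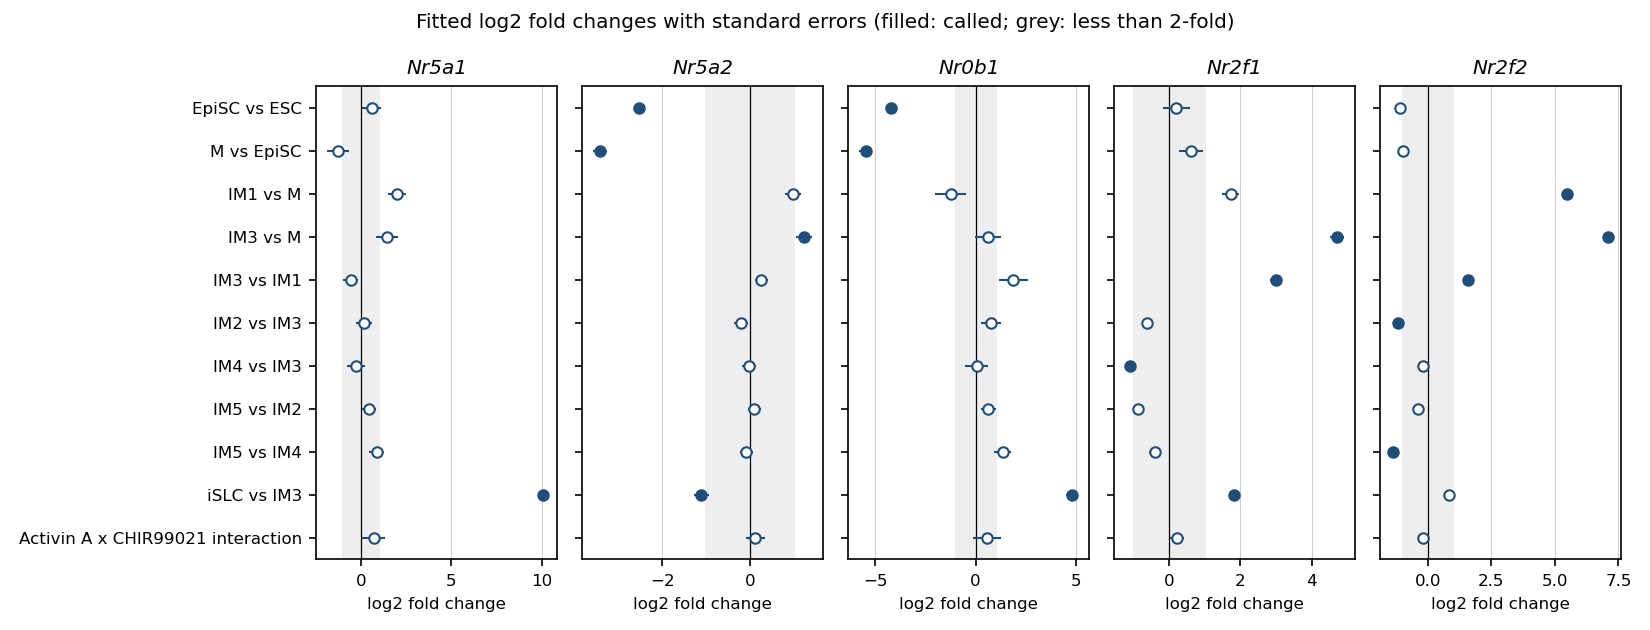
Fitted log2 fold changes (horizontal axes, separate scales) of the 5 genes tested in the 10 pairwise comparisons and the Activin A x CHIR99021 interaction, with bars for standard errors, filled points for called differences and grey bands for less than 2-fold. *Nr5a2* and *Nr0b1* have called falls at the first steps and *Nr5a2* a further one in iSLC against IM3, *Nr2f1* and *Nr2f2* their largest rises from M to IM3, and *Nr5a1* its called difference only in iSLC against IM3.

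IM3 cells held more of both COUP-TF messages than IM1 cells. In IM3, which adds RA to IM1, *Nr2f1* was at 5.37, 5.42 and 3.30 TPM and *Nr2f2* at 28.7, 30.1 and 31.0 TPM. Every IM3 library was above every IM1 library for both genes. Against IM1, *Nr2f1* rose by 2.99 on the log2 scale (standard error 0.154, adjusted p = 8.71e-15, 7.93-fold) and *Nr2f2* rose by 1.59 (0.0625, 3.71e-17, 3.02-fold), and 2 of 5 genes were called against 6.34% of all genes. Against M, 3 of 5 genes were called, with 14.9% of all genes called: *Nr2f2* rose by 7.07 (0.105, 1.87e-26, 134.6-fold), *Nr2f1* by 4.72 (0.196, 1.77e-17, 26.3-fold), and *Nr5a2* as given above. These comparisons share the IM3 libraries. Red blood cell gene sums were 21.3 to 74.4 TPM in IM3 and 3.06 to 4.54 TPM in IM1, so RA and that difference cannot be told apart.

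The genes listed as RA responsive were described in the same comparison. Of 11, 5 were called higher and 0 lower in IM3 than in IM1, with a median log2 difference of 2.79 against 0 over all genes. *Rarb*, the RA receptor gene that RA itself induces, rose from 0.843 ± 0.278 to 46.4 ± 1.93 TPM. *Cyp26b1*, an RA-degrading enzyme, rose from 1.54 ± 0.111 to 39.8 ± 0.765 TPM (SD, n = 3). Endoderm and liver markers summed to 338 to 368 TPM in IM1 and 343 to 407 TPM in IM3, and endothelial markers to 222 to 235 and 139 to 151 TPM. *Nr2f2* is also expressed in venous endothelium, and the part of that cell type in its level was not tested.

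*Nr2f2* fell with Activin A, both without and with CHIR99021, and *Nr2f1* fell with CHIR99021 in the medium without Activin A. *Nr2f2* was at 13.9, 13.9 and 14.8 TPM in IM2, 25.9, 25.3 and 24.2 TPM in IM4 and 9.84, 11.5 and 10.5 TPM in IM5. All 6 libraries without Activin A (IM3 and IM4, lowest 24.2 TPM) were above all 6 with it (highest 14.8 TPM). With Activin A added, *Nr2f2* fell by 1.19 on the log2 scale without CHIR99021 (IM2 against IM3, standard error 0.0619, adjusted p = 3.73e-14, 2.29-fold) and by 1.38 with it (IM5 against IM4, 0.0625, 2.42e-15, 2.60-fold). It was the 1 of 5 genes called in each, against 3.8% and 4.09% of all genes. Activin A is in the groups with low red blood cell gene sums, 1.62 to 3.04 TPM in IM2 and IM5 against 21.3 to 74.4 TPM in IM3 and IM4, so the factor and that difference cannot be told apart.

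*Nr2f1* was at 3.40, 4.22 and 2.99 TPM in IM2, 1.73, 2.57 and 1.96 TPM in IM4 and 1.5, 2.28 and 2.42 TPM in IM5. With CHIR99021 alone (IM4 against IM3) the libraries did not overlap and *Nr2f1* fell by 1.09 on the log2 scale (standard error 0.136, adjusted p = 2.89e-05, 2.13-fold), 1 of 5 genes called in a comparison where 0.101% of all genes, 21 in number and all lower, were called. The call was not kept by limma, with a log2 difference of -0.87 on TPM + 1 and -1.12 (adjusted p = 0.0135) on TPM + 0.1. With CHIR99021 added to Activin A (IM5 against IM2), 0 of 5 genes were called, against 0.235% of all genes. Both COUP-TF genes passed the p threshold there but not the fold minimum (*Nr2f1* -0.88, adjusted p = 0.00012, and *Nr2f2* -0.39, adjusted p = 0.000159), and they were also the 2 with an unadjusted p under 0.05, while DESeq2 and limma likewise called 0. Without replicate 3 of IM5, *Nr2f1* was called in that comparison at -1.03.

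Of the differences among IM conditions that were not called, *Nr2f1* was lower in IM2 than in IM3 by -0.63 (adjusted p = 0.000384), under the fold minimum, and the difference between IM5 and IM4 was -0.41 (adjusted p = 0.0199). The latter became 0.03 with an offset for effective length, the transcript length that RSEM weights by abundance. For *Nr2f1* that length ran from 1139 to 3016 bases over the 27 libraries, and in IM4 it was 2953, 1890 and 2444 bases, so counts and TPM of this gene do not always tell the same. For whether the effect of Activin A depends on CHIR99021, edgeR's interaction test called 0 of 5 genes, against 0.0336% of all genes, and by edgeR *Nr2f2* had the 1 unadjusted p under 0.05 (log2 difference -0.18, adjusted p = 0.466). DESeq2 and limma called 0 there as well.

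TPM is per length, with the limit that the estimated length of *Nr2f1* varied as above, and on this scale *Nr2f2* was the more abundant of the pair in every IM and iSLC library. Its share of the summed COUP-TF message was 91.7 ± 1.99% in IM1, 80.1 ± 3.25% in IM2, 86.4 ± 3.41% in IM3, 92.3 ± 1.49% in IM4, 83.8 ± 2.76% in IM5 and 74.2 ± 0.874% in iSLC (SD, n = 3). The sums behind these shares were 10.0 to 10.8, 17.3 to 18.1, 34.0 to 35.5, 26.1 to 27.8, 11.3 to 13.8 and 76.8 to 81.2 TPM. The iSLC libraries, at 74.3, 75.0 and 73.3%, were below all IM libraries, of which the lowest was at 76.7%. In M the share was 51.8 ± 8.83%, on 0.24 to 0.43 TPM in all.

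Within the IM conditions, the share was lower with Activin A (82.0 ± 3.40%, n = 6) than without it (89.4 ± 4.00%, n = 6), a difference of -7.43 percentage points (two-sided exact permutation test, p = 0.0108, adjusted p = 0.0325 over 3 tests). The arms overlapped, at 76.7 to 86.8% and 84.2 to 93.7%. Each arm pools a medium with and a medium without CHIR99021, which the permutation did not keep apart. The arms are also the groups with low and with high red blood cell gene sums. Activin A and that difference therefore cannot be told apart in the share. The difference remained between -8.42 and -6.55 when 1 replicate number was left out of all groups, with an adjusted p of 0.0857 to 0.171. Smaller arms have fewer arrangements, which raises the smallest p this test can give. Those adjusted p-values are therefore not comparable with that of all libraries, and they cannot show whether the difference was lost. Permuting only within replicate numbers (a replicate block), with all libraries, gave an adjusted p of 0.0833. With RA against without it the difference was -6.05 points (12 against 3 libraries, exact permutation p = 0.0879, adjusted 0.113), and with CHIR99021 it was 4.83 points (6 against 6, exact permutation p = 0.113, adjusted 0.113). When the share was taken from expected counts, these became -7.32 (adjusted p = 0.0195) and 4.82 (adjusted p = 0.0368). The arm with RA holds IM2 to IM5, of which IM2 and IM5 also had Activin A and IM4 and IM5 also had CHIR99021. Its difference from IM1 is therefore not that of RA alone. IM3 and IM1, whose media differ by RA alone, had shares of 86.4 ± 3.41% and 91.7 ± 1.99% and were not tested as a pair.

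**Figure D3:**
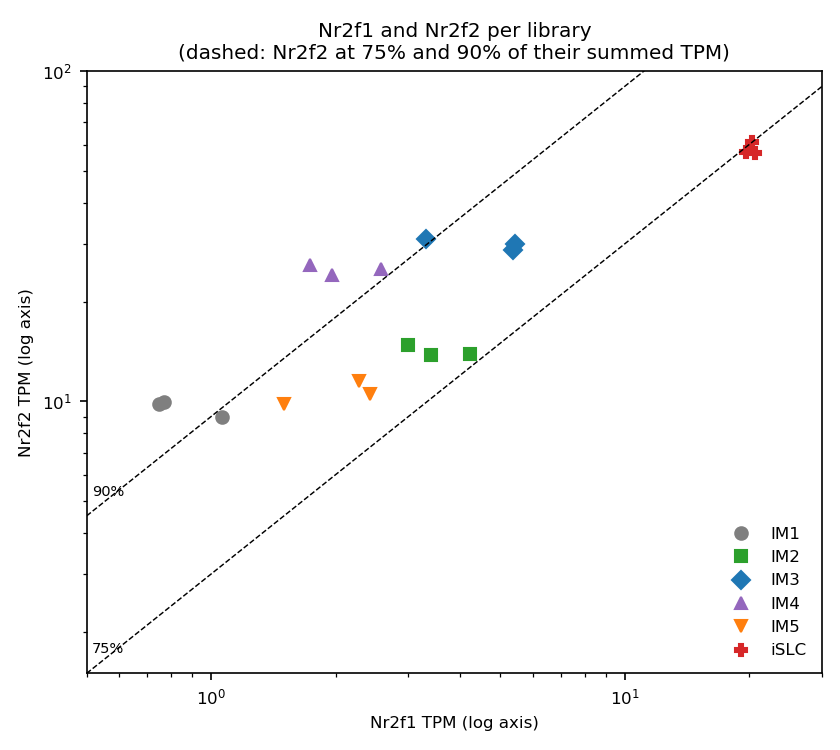
*Nr2f2* TPM against *Nr2f1* TPM in the 18 libraries of IM1 to IM5 and iSLC, both on log axes, with dashed lines where *Nr2f2* makes up 75% and 90% of the sum. IM1 and IM4 lie near or above the 90% line, IM2 and IM5 between the lines, and iSLC at the 75% line with 76.8 to 81.2 TPM in all.

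*Nr5a1* itself was almost undetected before the vectors. In the 24 libraries of ESC to IM5 it lay at 0 to 0.15 TPM, with a median of 0.08 TPM and 0 to 21 expected counts, and 4 of these libraries were at or under the floor. Within that range the IM1 libraries, at 0.10, 0.15 and 0.12 TPM, were above the M libraries, at 0.02, 0 and 0.08 TPM, with 46 counts in all against 8 (ratio of depth-scaled counts 4.26, exact 95% interval 1.99 to 10.4, adjusted p = 0.00104 by edgeR, under the count minimum). No group from ESC to IM5 stood apart from its neighbour in the order of levels.

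Factors known to act upstream of *Nr5a1* in the gonad were present in the IM cells at far higher levels than *Nr5a1*. Of 11 such genes, 5 were called higher and 1 lower in IM3 than in IM1 (median log2 difference 1.39, against 0 over all genes). *Tcf21* rose from 0.607 ± 0.393 to 19.3 ± 2.43 TPM, *Wt1* from 6.39 ± 0.866 to 148.8 ± 14.4 TPM, and *Gata4* from 75.8 ± 7.25 to 339.7 ± 2.84 TPM, while the cofactor gene *Cited2* fell from 124.6 ± 11.5 to 52.3 ± 3.34 TPM (SD, n = 3). *Tcf21* is known as a repressor of *Nr5a1*, and *Wt1* and *Gata4* as activators. *Lhx9* and *Emx2*, which act upstream of *Nr5a1* in the early gonad, were at 0.437 ± 0.0907 and 0.94 ± 0.451 TPM in IM1 and 1.84 ± 0.432 and 1.91 ± 0.48 TPM in IM3. *Lhx9* passed the p threshold (log2 difference 2.03, adjusted p = 7.41e-09) but not the count minimum, and *Emx2* differed by 0.89 (adjusted p = 0.000158), under the fold minimum.

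In iSLC the *Nr5a1* reads counted toward 100.3, 94.0 and 87.2 TPM, or 11366, 9013 and 8709 expected counts, against 0.08, 0.05 and 0.14 TPM and 7, 3 and 9 counts in IM3. All iSLC libraries were far above all others. The fitted difference was 10.06 on the log2 scale (standard error 0.178, adjusted p = 4.55e-25), and the ratio of depth-scaled counts was 1020, with an exact 95% interval of 656 to 1700. The coding sequence of the vector and the endogenous transcript give the same reads over the coding exons, so this value checks the vector and says nothing on the endogenous gene. The effective length of *Nr5a1* in iSLC was 2755, 2750 and 2753 bases, within the 2112 to 2803 bases of all libraries. The other calls in this comparison were *Nr0b1*, *Nr5a2* and *Nr2f1*, so 4 of 5 genes were called, or 3 of 4 without the vector gene, against 19.2% of all genes.

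*Nr0b1* went from near the floor in IM3 to well over it in iSLC. It lay at 3.13, 2.81 and 2.06 TPM (208, 158 and 121 counts) against 0.10, 0.03 and 0.16 TPM (5, 1 and 6 counts) in IM3, with no overlap. The log2 difference was 4.81 (standard error 0.297, adjusted p = 6.06e-14), and the ratio of depth-scaled counts was 27.2, with an exact 95% interval of 15.4 to 52.9. This level overlapped that of EpiSC and was 19.7 times lower than in ESC by depth-scaled counts (exact 95% interval 18 to 21.6). When only the iSLC and IM3 libraries were fitted the call was lost, since the mean normalized read count of these groups alone fell under 100.

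*Nr0b2* stayed near the limit of detection. Its counts were 12, 8 and 13 in iSLC (0.31, 0.24 and 0.38 TPM), 3, 0 and 1 in IM3, and at most 3 in any library outside iSLC, with 0 in all 3 libraries of M and of IM5. The iSLC libraries were the only ones over the floor. The gene did not pass the filter on low counts and was not tested in the main fit. The ratio of depth-scaled counts, iSLC over IM3, was 5.52 with an exact 95% interval of 1.96 to 21.5, and without the filter the log2 difference was 2.52 (standard error 0.989, adjusted p = 0.0305 by edgeR over 33727 genes), which was not called.

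*Nr5a2*, the paralog of the vector gene, was lower in iSLC than in IM3, at 0.40, 0.68 and 0.63 TPM against 1.37, 1.55 and 0.96 TPM. The libraries did not overlap, and *Nr5a2* fell by 1.11 on the log2 scale (standard error 0.173, adjusted p = 2.34e-06, 2.16-fold). Without replicate 1 of iSLC the difference was -0.95, and limma on log2(TPM + 1) gave -0.54, both under the fold minimum. By depth-scaled counts *Nr5a2* was 57.5 times higher in ESC than in iSLC (exact 95% interval 50.5 to 65.8). The 2 genes that stood together at the pluripotent stage thus parted in iSLC, where *Nr0b1* was called higher and *Nr5a2* lower.

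*Nr2f1* rose again in iSLC, to 19.7, 20.3 and 20.7 TPM (1506, 1410 and 1329 counts), by 1.82 on the log2 scale (standard error 0.126, adjusted p = 7.02e-13, 3.52-fold). *Nr2f2* was at 57.1, 60.9 and 56.6 TPM, above all IM3 libraries, and differed by 0.83 (0.0595, adjusted p = 1.43e-12, 1.77-fold), under the fold minimum. The antisense partners were also at their highest in iSLC, *A830082K12Rik* at 6.16 TPM against 3.08 in IM3 and *B130024G19Rik* at 4.26 against 0.913, which are means of 3 libraries. Markers of interstitial mesenchyme, where *Nr2f2* is known to be expressed in the gonad, summed to 194 to 198 TPM in iSLC and 140 to 150 TPM in IM3, endothelial markers to 122 to 125 and 139 to 151 TPM, granulosa markers to 26.1 to 30.4 and 18.6 to 22.0 TPM, and endoderm and liver markers to 13.0 to 20.8 and 343 to 407 TPM. Of the genes in these lists that were tested, 2 of 5, 1 of 8, 2 of 6 and 0 of 9 were called higher and 1, 6, 0 and 6 lower, in the same order. In iSLC the endothelial sum was mostly *Ephb4* (62.2 ± 4.77 TPM in IM3, 93.5 ± 1.63 in iSLC, not called), while *Tek* fell from 26.8 ± 1.85 to 0.697 ± 0.211 TPM, *Kdr* from 18.8 ± 1.41 to 0.717 ± 0.0153, *Pecam1* from 10.1 ± 1.71 to 0.397 ± 0.0862 and *Tie1* from 7.02 ± 0.715 to 0.0567 ± 0.0153 (SD, n = 3). *Emcn* rose by 3.39 on the log2 scale from 2.33 ± 0.303 TPM in IM3 (SD, n = 3). *Cyp19a1* of the granulosa list was at 0 in every iSLC library, and none of the other markers in these lists was at 0 throughout either group. The part of these cell types in the levels of the 6 genes was not tested.

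Genes listed as Nr5a targets were mixed. Of 14, 12 were tested, and 4 were called higher and 0 lower in iSLC than in IM3, with a median log2 difference of 1.80 against 0 over all genes. *Cyp11a1*, the first enzyme of steroid synthesis, rose from 0.57, 0.40 and 0.45 to 41.6, 30.2 and 38.2 TPM (log2 difference 6.46, standard error 0.205, adjusted p = 4.02e-20). *Inha*, the inhibin alpha subunit, rose from 3.26 ± 0.557 to 14.3 ± 1.07 TPM (2.17, 0.152, 8.98e-13), *Fdx1*, which passes electrons to *Cyp11a1*, from 16.3 ± 1.26 to 60.8 ± 4.81 TPM (1.95, 0.112, 1.14e-14), and *Star*, which carries cholesterol into mitochondria, from 8.32 ± 0.851 to 31.1 ± 3.05 TPM (1.65, 0.0758, 1.06e-16).

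The other 8 tested targets were not called, for different reasons. *Mc2r*, the ACTH receptor, was at 0.197 ± 0.0115 TPM in IM3 and 9.78 ± 1.21 TPM in iSLC (log2 difference 5.65), *Hsd3b1* at 0.90 ± 0.159 and 5.88 ± 0.777 TPM (2.79) and *Insl3* at 0.937 ± 0.384 and 6.98 ± 1.05 TPM (2.88), with adjusted p-values of 7.68e-13, 1.94e-10 and 3.91e-06 but read counts under the minimum. *Amh* (0.44 ± 0.12 and 0.56 ± 0.0781 TPM) and *Cyp17a1* (0.927 ± 0.102 and 0.807 ± 0.0702 TPM) gave adjusted p = 0.227 and 0.285. *Sox9* was at 40.0 ± 5.51 TPM in IM3 and 24.8 ± 1.60 TPM in iSLC (log2 difference -0.68), under the fold minimum. *Scarb1* was also lower in every iSLC library (82.8, 80.3 and 76.2 TPM) than in IM3 (100.3, 104.4 and 95.4 TPM). *Cyp19a1* was at 0.01, 0 and 0 TPM in IM3 and at 0 in iSLC. Of the 14 targets, 6 are also in the list of 8 Leydig and adrenal cortex markers, which summed to 10.8 to 13.4 TPM in IM3 and 82.8 to 106 TPM in iSLC, with all 8 over the floor in each iSLC library.

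**Figure D4:**
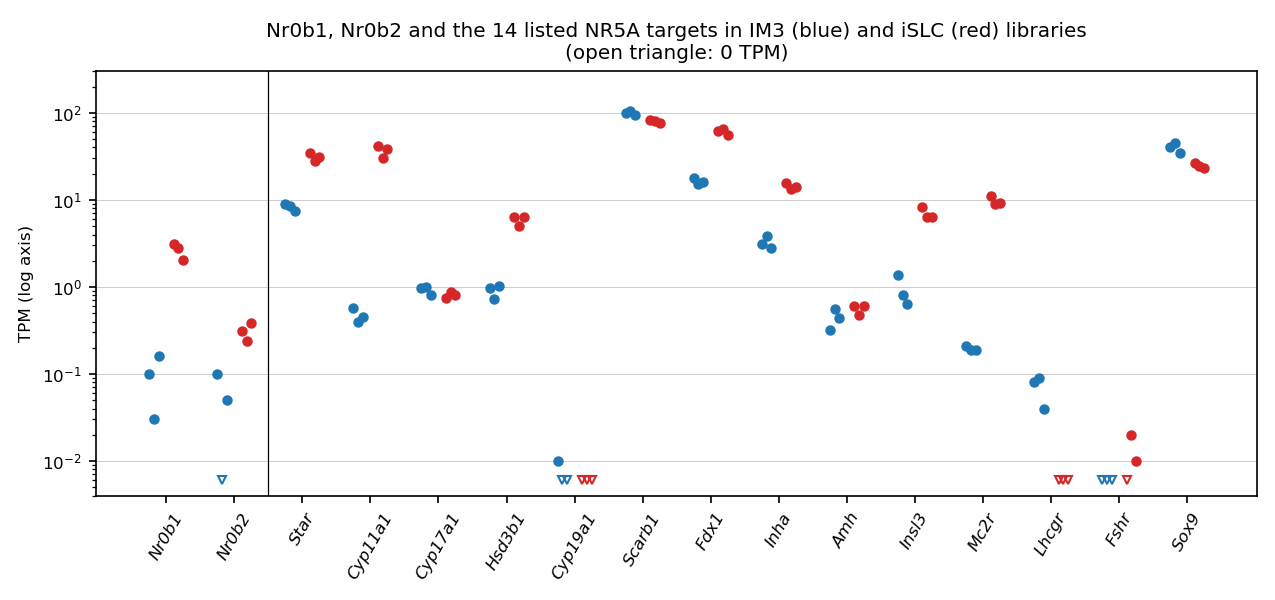
TPM on a log axis of *Nr0b1*, *Nr0b2* and the 14 listed Nr5a targets in the 3 IM3 libraries (blue) and the 3 iSLC libraries (red), with open triangles for libraries at 0 TPM. *Cyp11a1* and *Mc2r* show the widest gaps between the groups, while *Amh* and *Cyp17a1* lie at about the same level. *Scarb1* is slightly lower in iSLC without overlap, and *Cyp19a1*, *Lhcgr* and *Fshr* are at 0 or close to it.

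The upstream factors and cofactors of the receptors were called in part. In iSLC against IM3, 3 of the 11 upstream genes of *Nr5a1* were higher, among them *Tcf21* (from 19.3 ± 2.43 to 59.7 ± 3.98 TPM) and *Zfpm2* (from 14.3 ± 0.511 to 28.5 ± 0.159 TPM), and *Six4* was lower. Of 14 corepressors and coactivators, 3 were higher and 2 lower. *Bcl11a* and *Bcl11b*, which were found as COUP-TF partners, went in opposite directions, *Bcl11a* from 1.43 ± 0.244 to 6.23 ± 0.325 TPM and *Bcl11b* from 1.46 ± 0.276 to 0.783 ± 0.0839 TPM. *Zfpm1* fell from 161.0 ± 32.3 to 28.6 ± 1.41 TPM (SD, n = 3 throughout).

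Other nuclear receptor genes also differed between the groups. Of 43 other listed receptors 39 were tested, and in iSLC against IM3 10 were called higher and 3 lower, with a median log2 difference of 0.89. *Thra*, a thyroid hormone receptor gene, rose from 24.2 ± 2.07 to 191.6 ± 1.72 TPM, *Rora* from 1.22 ± 0.256 to 12.3 ± 0.904 TPM and *Vdr*, the vitamin D receptor gene, from 1.45 ± 0.22 to 7.74 ± 0.827 TPM. *Hnf4a*, a receptor of liver and gut, fell from 6.91 ± 1.88 to 0.437 ± 0.252 TPM, together with the endoderm markers given above. *Nr6a1*, a receptor gene that lies 8828 bases from *Nr5a1*, fell from 24.9 ± 1.29 to 2.50 ± 0.474 TPM. In IM3 against IM1, 2 of the 39 were higher and 5 lower.

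**Figure D5:**
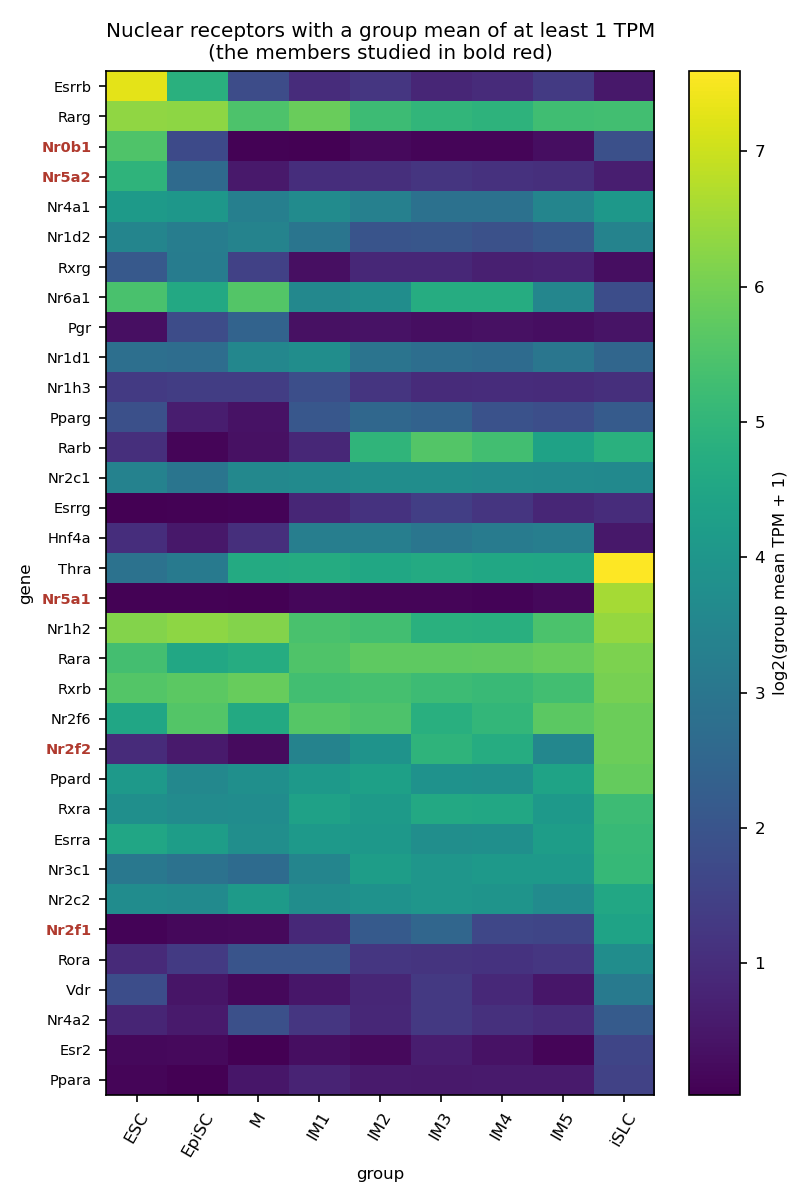
Group means of 34 nuclear receptor genes with at least 1 TPM in some group (rows) over the 9 groups (columns), as log2(mean TPM + 1) in colour, with 5 of the genes described here in red. *Nr0b1* and *Nr5a2* are bright in the ESC column with *Esrrb*, and *Nr5a1*, *Nr2f1* and *Nr2f2* in the iSLC column with *Thra*.

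The genes whose log2 depth-scaled counts followed each receptor most closely over the 27 libraries were chosen among 13476 genes by Pearson's r, as a description. The points share libraries, and for *Nr5a1* nearly all of the relation is the gap between iSLC and the rest. For *Nr5a1* they were *Ppt1*, *Abca9* and *Arhgap20* (r = 0.987, 0.983 and 0.983), which without iSLC were at 0.634, 0.783 and 0.663. For *Nr5a2* they were *Calcoco2*, *Itgb7* and *Abcb1a* (0.984, 0.982 and 0.975). *Calcoco2* lay at 101.0 TPM in ESC and 4.34 TPM in EpiSC, and at most 0.72 TPM in the means of the later groups. For *Nr0b1* they were *Steap3*, *Jam2* and *Rfng* (0.979, 0.972 and 0.962). *Jam2*, a junctional adhesion molecule, shared the second rise of *Nr0b1*, with means of 43.5 TPM in ESC, 3.98 in EpiSC, 0.61 in IM3 and 13.3 in iSLC.

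For *Nr2f1* the closest were *Tgfb3*, *Epha7* and *Tmem263* (0.989, 0.976 and 0.972), and for *Nr2f2* they were *Nrk*, *Atrn* and *Plagl1* (0.991, 0.988 and 0.988). *Tgfb3*, a ligand of the TGF beta family, went from 2.73 TPM in IM1 to 21.7 in IM3 and 96.7 in iSLC. *Plagl1*, an imprinted zinc finger gene, went from 4.21 TPM in M to 234 in IM1, 653 in IM3 and 1180 in iSLC. Among the receptors themselves, r was 0.909 between *Nr2f1* and *Nr2f2* and 0.786 between *Nr5a2* and *Nr0b1*, and without the iSLC libraries these were 0.901 and 0.959.

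Ordered by mean TPM, each gene has 8 pairs of neighbouring groups, 48 in all, and in 19 the libraries did not overlap. *Nr2f2* was the best resolved, with 7 of 8 apart in the order iSLC, IM3, IM4, IM2, IM5, IM1, ESC, EpiSC and M, where only IM5 and IM1 overlapped. *Nr2f1* followed iSLC, then IM3 and IM2 together, IM4 and IM5 together, IM1, and last M, EpiSC and ESC, with 4 apart. *Nr5a2* had 3 apart, with ESC above EpiSC, EpiSC above the IM groups, and iSLC and M together at the end. *Nr0b1* had ESC first, iSLC and EpiSC overlapping next, and the other groups after a gap, with 3 apart. One of these pairs, M above IM1, is between libraries that were all at or under the floor, so it resolves no difference. In FPKM 19 neighbours were also apart, and 3 of the 6 genes kept the same order of all groups.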

How the data were processed

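RNA-seq libraries (27, TruSeq version 2, HiSeq 4000, paired-end reads of 75 bp) were grouped by the labels. Per the submitters' processing notes and the study's methods, the authors trimmed reads with cutadapt 1.9.1, aligned them to GRCm38 with Ensembl release 86 transcripts in STAR 2.5.2a and ran RSEM 1.3.0. The authors deposited expected counts without normalization between libraries, TPM (per effective length, with the same total in every library) and FPKM (per length and per library total), and did not pool replicates. The authors compared groups with DESeq2, which here served as an alternative. Symbols and coordinates of 48349 genes (99.09%) came from a later annotation of the same build.

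Expected counts were rounded and fitted in edgeR 4.0.16 (R 4.3.3) with TMM factors, filterByExpr (20839 genes kept) and a quasi-likelihood model of all 9 groups. Thresholds were those of the authors: adjusted p no higher than 0.01, fold no lower than 2, and an average of 100 or more normalized reads both over the 27 libraries and in 1 or both compared groups. Levels were TPM as deposited, with FPKM as an alternative. Shares were tested by exact permutation (scipy 1.17.1, threshold 0.05). Intervals of count ratios were exact 95% intervals, and the floor was 3 counts, which cover counting error only. The steps were tested on simulated data. Alternatives used limma 3.58.1, DESeq2 1.42.0, offsets, thresholds and left-out libraries.

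Members, gene lists and tests were chosen with earlier results of these data known. Named were the 6 receptors, the 3 genes of highest r with each, overlapping and nearest genes, and from each list at most the 3 largest rises and falls among those called. Other listed genes were named after their values were seen. Deviations of same-numbered libraries correlated by 0.00173 on average over pairs of groups, and by -0.000884 for different numbers, so the numbers were not taken to pair libraries. Some listed genes are not reported here.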

Additional observations from a re-analysis of the deposited data

How the results depend on the processing

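The 55 differences of the 5 tested receptors (17 called) were recomputed under 13 alternatives and without each library in turn. Of 323 values for called differences, 315 kept the call, 8 lost it and 0 changed sign, and 12 of the 17 kept it throughout. The number of genes called in M against EpiSC was 1 when only the groups compared were fitted. In IM1 against M it was 2 with the effective length offset, with the GC offset, with the replicate block with GC offset and without a fold minimum, 3 without the count minimum, and 1 to 2 with a library left out (2 without IM1 replicate 3). In IM2 against IM3 it was 2 without a fold minimum. In IM4 against IM3 it was 0 with limma at either pseudocount (1 or 0.1). In IM5 against IM2 it was 2 without a fold minimum and 0 to 1 with a library left out (1 without IM5 replicate 3).

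The replicate block alone changed 0 of the receptor calls, and in M against EpiSC, for example, 2 were called with it. For the *Nr2f2* share, the difference with Activin A was -7.431 with the replicate block (adjusted p = 0.0833) and -8.423 to -6.554 without a replicate number, past the threshold in neither. Without a replicate number fewer arrangements are left, so the adjusted p-values of that setting are not comparable with that of all libraries. From expected counts, the share differed by -7.319 with RA (IM2 to IM5 against IM1, not RA alone) and by 4.816 with CHIR99021, both past the threshold. The causes were not tested.

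Signs changed only for differences that were not called. *Nr5a1* in IM2 against IM3 was 0.169 and became -0.0333 with the GC offset and -0.0273 with the replicate block and GC offset. *Nr0b1* in IM4 against IM3 (0.0559) became -0.00904 and -0.0535 with limma at pseudocounts 1 and 0.1, and *Nr5a2* in IM5 against IM2 (0.0934) became -0.0241 and -0.0773. *Nr2f1* in IM5 against IM4 (-0.412) became 0.0285 with the effective length offset. With a library left out, the ranges that crossed 0 were -0.0934 to 0.946 for *Nr2f1* in EpiSC against ESC, -0.176 to 0.581 for *Nr5a1* in IM2 against IM3, and -0.613 to 0.156 for *Nr5a1*, -0.113 to 0.0361 for *Nr5a2* and -0.803 to 0.538 for *Nr0b1* in IM4 against IM3. For *Nr5a2* they were also -0.111 to 0.328 in IM5 against IM2, -0.285 to 0.154 in IM5 against IM4 and -0.0812 to 0.358 in the interaction. Depth limits *Nr5a1* outside iSLC, *Nr0b1* from M to IM5 and *Nr0b2* throughout, where counts per library were 0 to 21.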

Other observations

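With Activin A added without CHIR99021 (IM2 against IM3), where *Nr2f2* fell, other listed genes also differed. Of 14 pluripotency factors, 5 were called higher and 0 lower in IM2 than in IM3 (median log2 difference 1.02), among them *Sox2* (1.40 ± 0.229 to 12.7 ± 0.748 TPM) and *Pou5f1* (8.17 ± 1.18 to 29.7 ± 1.10 TPM). *Wt1*, an upstream factor of *Nr5a1*, fell from 148.8 ± 14.4 to 29.7 ± 2.71 TPM and *Tcf21* from 19.3 ± 2.43 to 6.20 ± 0.526 TPM (SD, n = 3). Among the COUP-TF corepressors, *Bcl11a* rose from 1.43 ± 0.244 to 3.27 ± 0.287 TPM and *Bcl11b* from 1.46 ± 0.276 to 3.44 ± 0.411 TPM. In IM5 against IM4, 5 of the 14 pluripotency factors were also called higher and 0 lower. *Wt1* and *Tcf21* were called lower there and *Bcl11a* higher, but *Bcl11b* was not called.

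The RA-responsive genes parted in iSLC, where *Nr2f1* rose further. Of 11, 3 were called higher and 4 lower than in IM3. *Dhrs3*, a retinaldehyde reductase, rose from 35.6 ± 3.80 to 160.9 ± 4.91 TPM. *Cyp26a1* fell from 22.5 ± 0.607 to 1.96 ± 0.208 TPM (SD, n = 3).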
